A study of Mus musculus with 36 samples.

Results

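Slc26a7, Tdo2, Anxa1, Prg4 and Bche were chosen by their large signal increases in the cortex of Dicer conditional knockout (cKO) mice over control mice, 4 weeks after the knockout was induced. Their differences in that contrast are therefore given as a description with no test. Tests were made only in other contrasts, and in correlations over arrays that did not enter the choice. The later cortex contrast is not fully independent of the choice. Its filter on low values, probe set per gene and error estimate drew on all cortex arrays, including those that chose the genes. Every probe set annotated to 1 of these genes alone was taken, which gave 11 of 34958 single-gene probe sets, for 5 of 18194 genes. Each gene had 1 probe set that passed the filter on low values in the cortex, and its values are those given here. The other 6 probe sets (1 of Slc26a7, 2 of Tdo2, 1 of Anxa1 and 2 of Bche) had cortex medians of 2.58 to 3.51 log2 units and failed the filter in every tissue. They differed by -0.20 to 0.22 between cKO and control cortex at 4 weeks. The -0.20 was that of Slc26a7, with all cKO arrays below all control arrays. In the 4-week hypothalamus the same probe set had all cKO arrays above, with a difference of 0.34. The Slc26a7 probe set used here gave -0.26 there. The rises described here thus rest on 1 probe set per gene.

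The study profiled cortex, hypothalamus and hippocampus on 36 Affymetrix arrays, 1 per animal and tissue, in 12 groups of 3. All mice were Cre+;Dicer lox/lox on a C57BL/6J background and carried the tamoxifen-activated recombinase Camk2a-CreERT2. At 8 weeks of age, cKO mice received tamoxifen (10 mg in all) and control mice received the sunflower oil and ethanol vehicle, and brains were taken 4 or 8 weeks later. The groups were thus cKO and control mice at 4 weeks and cKO and control mice at 8 weeks, in each of the 3 tissues. The Camk2a promoter drives the recombinase in excitatory neurons of the forebrain, so glia, vessels and meninges keep their Dicer, and the effect of the deletion and of tamoxifen itself cannot be told apart with these controls. Values are log2 signal intensities normalized within each tissue, so levels were compared within a tissue only.

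The tissue labels, the targeted gene and single arrays were checked first. Neither of the 2 Dicer1 probe sets was lower in cKO cortex (differences of 0.45 and 0.10 at 4 weeks, 0.33 and 0.05 at 8 weeks). It is not given whether they lie in the excised exon. By RT-PCR of an exon outside it, the paper reports that Dicer mRNA seemed lower in cKO hippocampus. A fall was thus not seen with these probe sets in the cortex, and the reason was not tested. All 7 detected hypothalamus markers were highest in their own tissue, as were 4 of 5 cortex markers, but only 1 of 8 hippocampus markers was. Among the 12 arrays labelled hippocampus, replicate 1 of the 8-week cKO group alone had high signals of several genes of hippocampal pyramidal and granule neurons. There Neurod6 stood at 9.05, against 2.68 to 3.31 on the other 11, Spink8 at 8.36, against 3.31 to 3.82, and Dsp at 8.36, against 3.01 to 3.50. Other markers separated it less and were not low on the other 11. Zbtb20 stood at 9.75, against 7.51 to 8.59, Wfs1 at 9.58, against 8.65 to 9.16, and Fibcd1 at 7.75, against 6.66 to 7.67. All 12 carried Shox2 and Slc17a6, genes picked after their values were seen, with Shox2 at 9.42 on that array, against 9.90 to 10.4 on the other 11, and Slc17a6 at 10.6, against 10.9 to 11.4. These arrays are therefore called by their label only, and results that rest on the array standing apart are given with and without it. In the cortex, 3 arrays (replicate 3 of the 4-week cKO and of the 4-week control group, and replicate 2 of the 8-week cKO group) lay together at 1 end of the second principal component, which held 31.1% of the variance. Their loadings were -0.45, -0.42 and -0.25, in that order. At the other end, replicate 3 of the 8-week control group lay as far out, at 0.47, and replicate 1 of the 4-week cKO group at 0.41. The 3 arrays are called below those that stood apart, as a name only.

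The 5 genes belong to unrelated families. Slc26a7 is an anion transporter best known from kidney, stomach and thyroid. Tdo2, tryptophan dioxygenase, opens the kynurenine pathway of tryptophan breakdown, mainly in the liver, and in the mouse brain is known from granule neurons of the dentate gyrus. Anxa1 is a calcium-dependent phospholipid-binding protein whose release dampens inflammation through formyl peptide receptors. Prg4, or lubricin, is a mucin-like glycoprotein that lubricates joint surfaces, and Bche, butyrylcholinesterase, splits choline esters. The leptomeninges, the arachnoid and pia that cover the brain, hold fibroblast-like cells rich in collagens, small proteoglycans and solute transporters, and a dissected piece of cortex carries some of them on its surface. The amount of this and of other tissue contents was followed with lists of marker genes. A content score is the median, over the genes of a list, of their deviation from the mean of the 12 arrays of a tissue, with the 5 genes themselves left out. In bulk RNA, more cells of a type and more RNA per cell cannot be told apart.

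RefSeq promoter windows (GRCm38.p6, 250 bases before to 50 after the start) were at hand for 3 of the 5 genes. The stretches of 30 bases shown here hold some of the motifs searched, in capitals.

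Tdo2, chr3:81975940-81975969, minus strand: ttctatgttggaTATAAAagctcaacttgg
Tdo2, chr3:81975789-81975818, minus strand: agctgggtgctgATTGGctgtgtctggcaa
Anxa1, chr19:20390686-20390715, minus strand: cagttcatatccTATAAAatcaggagtcca
Bche, chr3:73708419-73708448, minus strand: tttctattactgaccctccCCGCCCCGCCC

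Capitals mark TATAAA in Tdo2 and Anxa1, the reverse complement of the CCAAT box in Tdo2, and 2 overlapping reverse complements of the GC box GGGCGG in Bche. Counted from the annotated start, TATAAA began at -32 in Anxa1 and at -229 in Tdo2, and Bche also held CCAAT at -204. On either strand, TATAAA occurred in 13.6% of 32851 promoter windows of the same length, CCAAT in 37.4% and GGGCGG in 35.7%. None of the 3 windows held AGAACA, the core of the glucocorticoid response element, found in 19.0% of all windows, or the AP-1 motif TGANTCA, found in 7.81%. No motif of those searched was present in all 3.

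At 4 weeks, all 5 genes were higher in every cKO cortex than in any control cortex. Slc26a7 read 5.26, 5.84 and 5.22 in the 3 cKO cortices, against 4.01, 3.91 and 4.35 in control cortices, a difference of 1.35 or 2.55-fold. Tdo2 read 4.47, 5.19 and 5.25 in cKO cortices, against 3.82, 4.10 and 3.39 in control cortices, a difference of 1.20. Anxa1 read 6.71, 6.70 and 6.51 in cKO cortices, against 5.43, 5.58 and 5.85 in control cortices, a difference of 1.02. These 3 genes left a gap between the groups, of 0.87 for Slc26a7, 0.66 for Anxa1 and 0.37 for Tdo2, measured between the lowest cKO and the highest control array. Prg4 read 6.89, 6.68 and 6.67 in cKO cortices, against 5.17, 5.80 and 6.02 in control cortices, a difference of 1.08 with a gap of 0.65. Bche read 5.62, 6.24 and 5.27 in cKO cortices, against 4.49, 4.49 and 5.0 in control cortices, a difference of 1.05 with the narrowest gap, 0.27. In control replicate 3, 1 of the arrays that stood apart, 4 of the 5 genes (all but Tdo2) had their highest control value. As background, the cKO arrays lay above all control arrays for 16.1% of all genes tested and below them for 2.99%, 5.23% of genes were called in either direction by limma at a false discovery rate (FDR) of 15% (4.25% as higher), and the median difference over all genes was 0.11. Since this contrast chose the genes, nothing is read from these counts. All 5 genes lay in the lower or middle part of the signal range, with median percentiles on the cortex arrays of 32.7 (Tdo2) to 62.6 (Prg4).

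**Figure D1:**
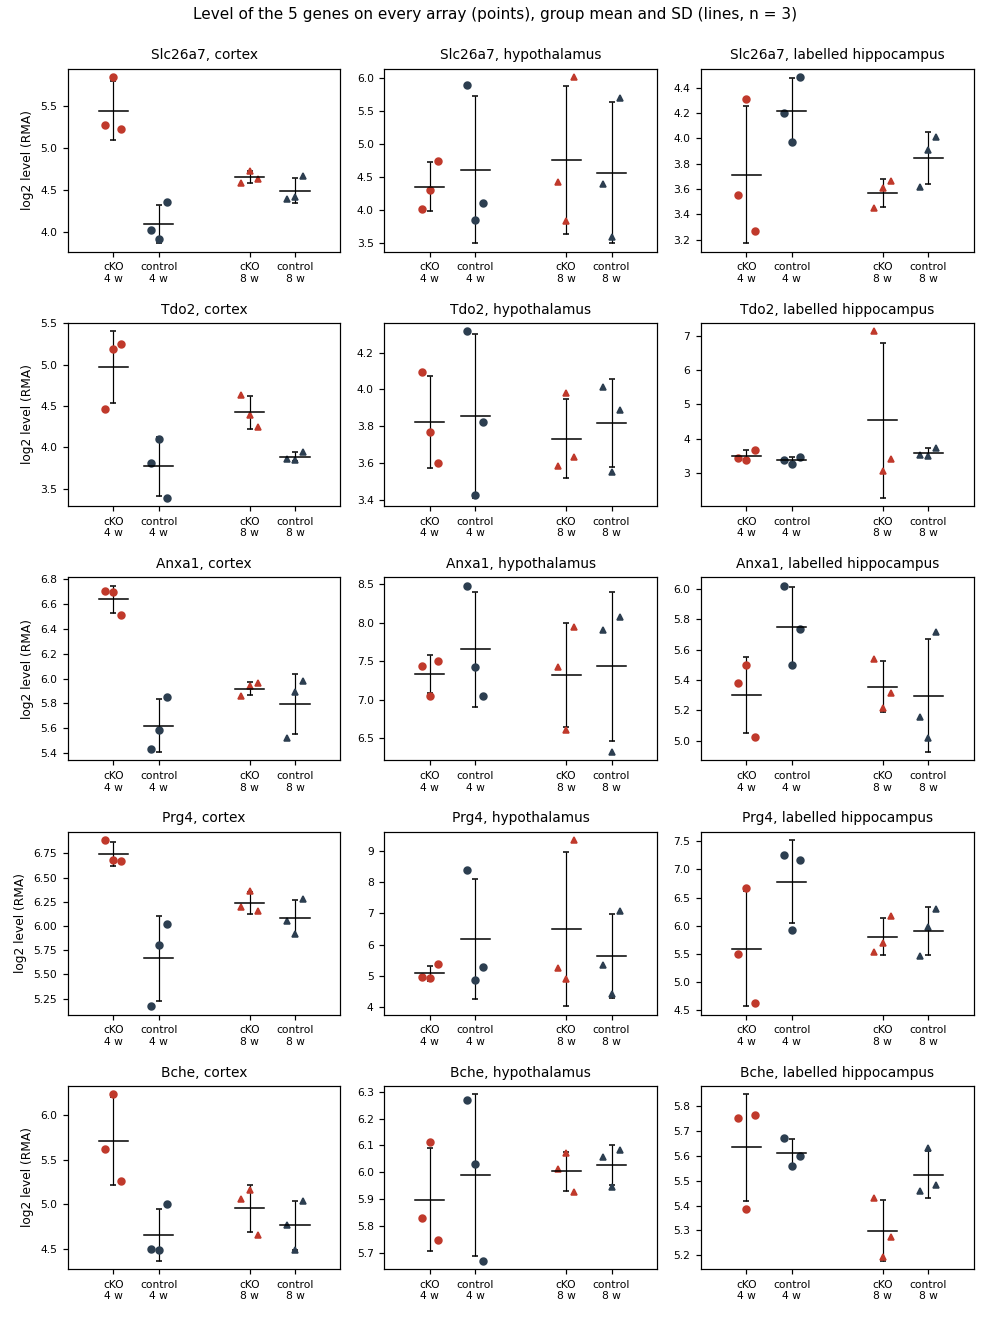
Log2 signal intensity (vertical axis) of Slc26a7, Tdo2, Anxa1, Prg4 and Bche on each of the 36 arrays, by tissue, time and treatment, cKO left of control at each time, with each point 1 array and lines for the mean and SD of 3. In the cortex at 4 weeks the 3 cKO points lie above the 3 control points for every gene, single arrays stand out for Prg4 in the hypothalamus (9.36 at 8 weeks), and Tdo2 has 1 value of 7.14 among the arrays labelled hippocampus.

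The leptomeningeal markers moved with these genes in the 4-week cortex. Of 38 marker genes, 37 were higher in cKO cortex, 24 passed the FDR of 15% as higher and none as lower, with a median difference of 0.67. The liver-type lectin receptor Asgr1 differed by 1.36, the organic cation exporter Slc47a1 by 1.30 and the collagen chain Col1a2 by 1.04. The score was 0.48, 0.42 and 0.29 in the 3 cKO cortices, against -0.47, -0.28 and 0.01 in control cortices, so that the groups did not overlap. Over the 12 cortex arrays, which include those that chose the genes, the correlation with the score was 0.96 for Prg4, 0.93 for Anxa1, 0.92 for Bche, 0.91 for Slc26a7 and 0.69 for Tdo2, as a description. Markers of several other contents differed less: the median difference was 0.17 for choroid plexus, 0.19 for ependyma, 0.18 for endothelium and 0.21 for both mural cells and microglia, with no gene called in any of these lists. The median was 0.23 for oligodendrocytes and 0.09 for astrocytes, each with 1 gene called as higher. Excitatory neuron markers were lower in cKO cortex for 11 of 12 genes, with 2 called and a median of -0.18. Markers set to check the tissue label moved further. Of 5 cortex markers 4 were lower in cKO cortex, with a median of -0.81 and 2 called, Cux2 (-1.03) and Tbr1 (-0.88). Of 7 hippocampus markers 5 were higher, with a median of 0.54 and 1 called, Lct (1.04). The hypothalamus markers also moved, with 6 of 7 higher, a median of 0.38 and 1 called as higher. The part of these shifts and of leptomeningeal content in the differences of the 5 genes was not tested.

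The counts of called genes in this contrast rest on single arrays. Over all genes 769 were called, against 9116 without the 3 arrays that stood apart. Leaving out 1 array at a time gave 3, 2 and 4198 genes without cKO replicates 1, 2 and 3, and 1, 0 and 6819 without control replicates 1, 2 and 3. The leptomeningeal markers called as higher numbered 31 without the 3 arrays, 30 without cKO replicate 3 and 32 without control replicate 3, and 0 when any other array was left out. The median difference of that list moved less, between 0.56 without control replicate 1 and 0.81 without control replicate 3. A score of nuclear-retained RNAs, read as a sign of RNA quality or composition, was -1.10, -0.46 and 0.53 in cKO cortices, against 0.39, 0.46 and 0.38 in control cortices, with a median difference of -0.81 over 14 genes, 2 called as higher and 2 as lower, and its part in the differences was not tested.

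**Figure D2:**
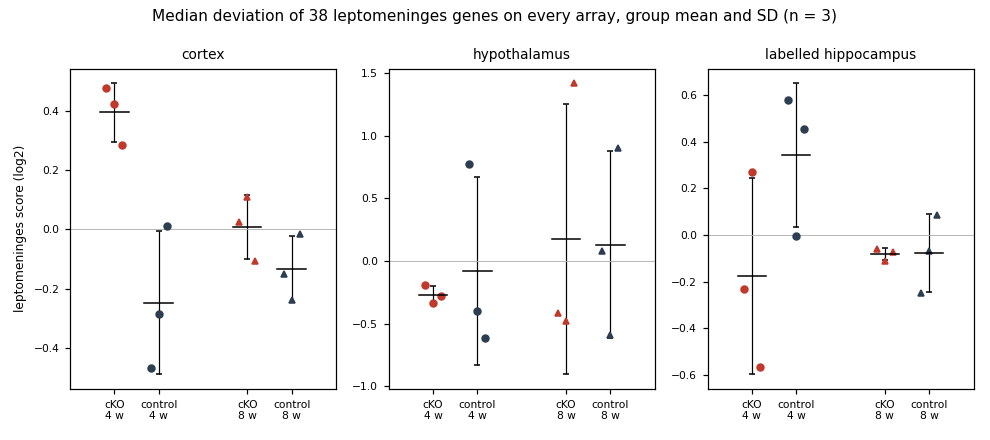
Leptomeningeal content score (vertical axis, log2 units, median deviation of 38 marker genes from the mean of the tissue's 12 arrays) for each array (points, with lines for the group mean and SD) by tissue, time and treatment, cKO left of control at each time. In the 4-week cortex the cKO arrays lie at 0.29 to 0.48 and the control arrays at -0.47 to 0.01, while in the hypothalamus 3 arrays of different groups lie at 0.78 to 1.42 and the other 9 at -0.62 to 0.08.

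At 8 weeks, the levels of the genes other than Tdo2 in cKO cortex lay close to those in control cortex. Slc26a7 read 4.58, 4.73 and 4.63 in cKO cortices, against 4.39, 4.41 and 4.66 in control cortices (difference 0.16, SE 0.17, limma adjusted p = 0.886). Anxa1 read 5.86, 5.94 and 5.96 in cKO cortices, against 5.52, 5.89 and 5.98 in control cortices (difference 0.12, SE 0.14, limma adjusted p = 0.895). Prg4 read 6.19, 6.36 and 6.16 in cKO cortices, against 6.05, 5.92 and 6.28 in control cortices (difference 0.15, SE 0.19, limma adjusted p = 0.895). For these 3 genes the groups overlapped and the difference was no larger than its error. Bche overlapped too, with 5.06, 5.15 and 4.65 in cKO cortices, against 4.77, 4.49 and 5.04 in control cortices (difference 0.19, SE 0.24, limma adjusted p = 0.897). Tdo2 alone had all cKO arrays above all control arrays, at 4.64, 4.39 and 4.25, against 3.86, 3.85 and 3.95 in control cortices. Its difference of 0.54 (SE 0.22) did not pass (limma unadjusted p = 0.0288, adjusted p = 0.869). The third-highest 8-week value of Tdo2, 4.25, lay below the filter value of 4.30, so Tdo2 passed the filter only with 4-week cKO arrays. Its 8-week test is therefore not independent of the arrays that chose it. Another Tdo2 probe set, which failed the filter, also had all cKO arrays above, with a difference of 0.21. That 1 of 5 genes had all cKO arrays above is to be read against 10% of all genes tested in this contrast, with 7.46% having all cKO arrays below. No gene on the array was called by limma at 8 weeks (0%), while 697 had an unadjusted p under 0.05. The median of the leptomeningeal list was 0.16, with 30 of 38 markers higher and 0 called. Whether the differences at 4 and 8 weeks differ was not tested, since the 4-week arrays chose the genes.

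In the hypothalamus, 3 arrays had high Prg4 and Slc26a7, and they belonged to 3 different groups. At 4 weeks Prg4 read 4.95, 4.92 and 5.37 in cKO mice, against 8.40, 4.88 and 5.30 in control mice. At 8 weeks it read 5.26, 4.89 and 9.36 in cKO mice, against 5.36, 4.44 and 7.08 in control mice. The spread between animals of 1 group thus spanned more than 4 log2 units, cKO minus control gave -1.11 at the first time and 0.88 at the second (SE 1.16 each), and neither passed (limma adjusted p = 0.998 and 0.999). Slc26a7 read 4.01, 4.30 and 4.74 in cKO mice at 4 weeks, against 5.90, 3.84 and 4.10 in control mice. At 8 weeks it read 4.42, 3.83 and 6.02 in cKO mice, against 4.40, 3.58 and 5.71 in control mice. Its 3 highest arrays were the same 3 as for Prg4. Anxa1 read 7.44, 7.05 and 7.51 in cKO mice at 4 weeks, against 8.48, 7.43 and 7.04 in control mice. At 8 weeks it read 7.42, 6.60 and 7.94 in cKO mice, against 7.91, 6.32 and 8.08 in control mice. Its 3 highest arrays were again these. Bche varied little, between 5.67 and 6.27 over the 12 arrays. Tdo2 lay between 3.43 and 4.32 and failed the filter in this tissue.

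None of the 4 tested genes had all cKO arrays above or below all control arrays in the hypothalamus, where 2.83% of all genes had them above and 3.81% below at 4 weeks, and 6.28% above and 6.2% below at 8 weeks. None of them was called at 4 weeks or at 8 weeks, where limma called no gene (0%), with 425 and 1024 genes at an unadjusted p under 0.05. At 8 weeks, where same-numbered animals deviated together, a fit with the replicate number as a block called 2 genes, neither of them among the 5. Without control replicate 1, the 4-week difference was -0.0062 for Prg4 and 0.38 for Slc26a7, the opposite sign to the -0.26 with it. Without cKO replicate 3, the 8-week difference of Prg4 was -0.55. Nor was any of them called between 8 and 4 weeks in cKO mice, where 2 genes were (0.0129%, 0.00647% in each direction), in control mice (0%, 324 genes at an unadjusted p under 0.05) or in the interaction of time and treatment (0%, 690 such genes). The interaction of Prg4 was 1.99 (SE 1.64, limma adjusted p = 0.999).

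The 3 arrays with high Prg4 and Slc26a7 were those with the highest leptomeningeal score in the hypothalamus. The score was 1.42 in replicate 3 of the 8-week cKO group, 0.90 in replicate 3 of the 8-week control group and 0.78 in replicate 1 of the 4-week control group. The other 9 lay at or below 0.08, with a gap of 0.70 between. Because the arrays fell into these 2 separate sets, the planned correlations over all 12 are not given as results, although they count among the pairs adjusted for. Within the 9, Anxa1 had r = 0.79 with the score (exact permutation p = 0.0109, adjusted p = 0.073 over the 100 gene and list pairs tested; rho = 0.88, exact permutation p = 0.00308, adjusted p = 0.0342), and r = 0.81 without the 2 arrays farthest from the median score. It thus passed by rank and did not pass by Pearson's r. The pairs adjusted for include those set aside here and repeats of pairs from the arrays labelled hippocampus. Their low p-values make the adjustment milder, and the 9 arrays were taken alone after the data were seen. No result is therefore read from the pass by rank. The correlation within the 9 was 0.51 for Slc26a7 (exact permutation p = 0.163), 0.45 for Tdo2, 0.44 for Prg4 and 0.24 for Bche (exact permutation p = 0.532), none of which passed. Prg4 and Slc26a7 lie low on the other 9 arrays, at 4.44 to 5.37 and 3.58 to 4.74.

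Cortex and hypothalamus came from the same animals in 11 cases, which allows the same brain to be followed. The 8-week cKO animal with Prg4 at 9.36 in the hypothalamus had 6.16 in the cortex, the lowest of its group of 3. The 8-week control animal with 7.08 in the hypothalamus had 6.28 in the cortex, the highest of its group. The 3 cKO animals whose cortex scored 0.29 to 0.48 for leptomeninges at 4 weeks scored -0.34 to -0.19 in the hypothalamus. The score of that 8-week cKO animal was 1.42 in the hypothalamus and -0.11 in the cortex, the lowest of its group there. The score of that 8-week control animal was 0.90 in the hypothalamus and -0.01 in the cortex, the highest of its group in both tissues, and the 3 control animals had the same order in both. The other cKO animals at 8 weeks scored -0.42 and -0.48 in the hypothalamus and 0.02 and 0.11 in the cortex, and the 2 shared control animals at 4 weeks -0.39 and -0.62 in the hypothalamus and -0.47 and -0.28 in the cortex.

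On the arrays labelled hippocampus, Prg4 and Anxa1 were lower in cKO mice at 4 weeks, without passing. Prg4 read 5.49, 6.67 and 4.62 in cKO mice at 4 weeks, against 7.25, 5.93 and 7.17 in control mice (difference -1.19, SE 0.47, limma adjusted p = 0.773). Anxa1 read 5.38, 5.50 and 5.02 in cKO mice, against 6.02, 5.50 and 5.74 in control mice (difference -0.45, SE 0.19, limma adjusted p = 0.773). The direction was opposite to that in the 4-week cortex, and a test of that difference between tissues was not made. The leptomeningeal score ran the same way, at -0.23, 0.27 and -0.57 in cKO mice, against 0.58, -0.01 and 0.46 in control mice, with 35 of 38 markers lower, a median of -0.52 and 0 called. Bche read 5.75, 5.39 and 5.76 in cKO mice at 4 weeks, against 5.67, 5.56 and 5.60 in control mice, and the groups overlapped. None of the 3 tested genes had all cKO arrays above or below at 4 weeks, where 5.14% of all genes had them above and 4.9% below. At 8 weeks Bche was lower in every cKO mouse, at 5.43, 5.19 and 5.27, against 5.46, 5.63 and 5.48 in control mice (difference -0.22, SE 0.11, limma adjusted p = 0.767). Among all genes, 8.75% had all cKO arrays below and 5.71% above at that time. At 8 weeks the difference was 0.06 for Anxa1 (limma adjusted p = 0.947) and -0.11 for Prg4 (limma adjusted p = 0.962), both within their errors of 0.19 and 0.47. Limma called no gene (0%) at either time, with 917 and 858 genes at an unadjusted p under 0.05, nor between times or in the interaction (0%, 807 to 1163 such genes).

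Slc26a7 and Tdo2 failed the filter on these arrays. Slc26a7 read 3.55, 4.31 and 3.27 in cKO mice at 4 weeks, against 4.20, 3.97 and 4.48 in control mice. At 8 weeks it read 3.45, 3.61 and 3.66 in cKO mice, against 3.62, 3.91 and 4.01 in control mice. The groups overlapped at both times. Tdo2 read 3.43, 3.38 and 3.68 in cKO mice at 4 weeks, against 3.38, 3.27 and 3.47 in control mice. At 8 weeks it read 7.14, 3.05 and 3.41 in cKO mice, against 3.51, 3.48 and 3.73 in control mice. The value of 7.14 came from the array that alone had high Neurod6, Spink8 and Dsp, and exceeded every other array by 3.40 or more.

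Within the arrays labelled hippocampus, 3 of the 5 genes followed the leptomeningeal score from array to array. Prg4 had r = 0.98 over the 12 arrays (permutation p = 1e-05, the smallest the 100000 resamples can give, adjusted p = 0.001; rho = 0.92, adjusted p = 0.003), and r = 0.95 without the 2 arrays farthest from the median score. Slc26a7 had r = 0.89 (permutation p = 0.00014, adjusted p = 0.0035; rho = 0.85, adjusted p = 0.015), and 0.87 without the 2 farthest. Anxa1 had r = 0.85 (permutation p = 0.00063, adjusted p = 0.00837; rho = 0.84, adjusted p = 0.0176), and 0.68 without the 2 farthest. After the group means were removed, r was 0.97 for Prg4, 0.89 for Slc26a7 and 0.74 for Anxa1, so the relation was also found between animals of 1 group. Without the 1 array with high Neurod6, r over the other 11 arrays was 0.99, 0.93 and 0.86, in the same order of genes. With group means removed as well, it was 0.99, 0.91 and 0.77. Tdo2 (r = -0.09, permutation p = 0.681) and Bche (r = -0.06, permutation p = 0.845) had no detectable relation to the score. The low levels of Slc26a7 on these arrays, 3.27 to 4.48, did not keep it from this correlation.

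**Figure D3:**
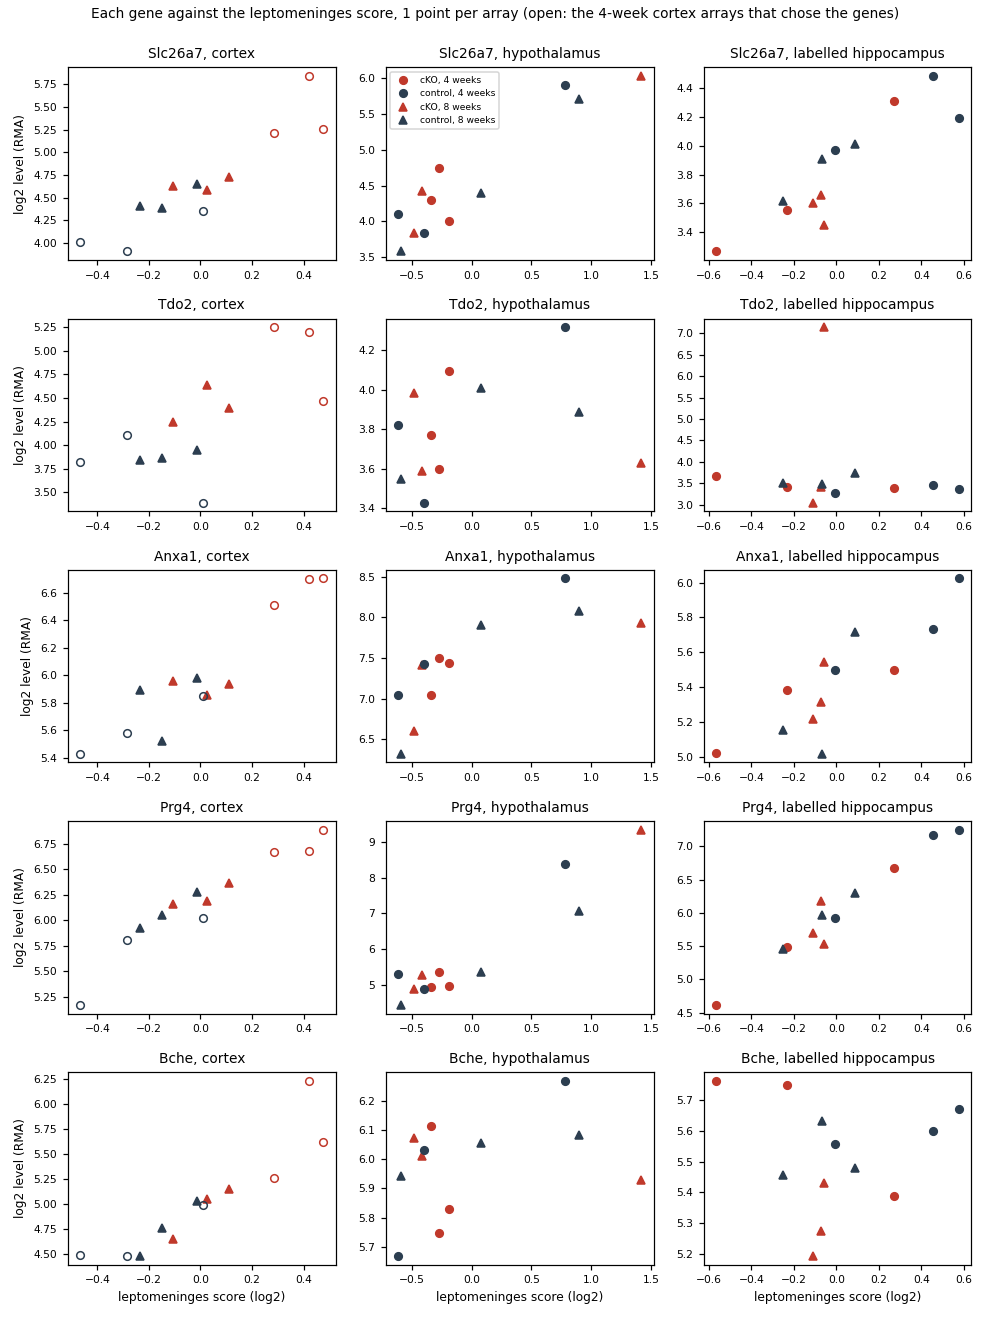
Log2 signal intensity of each gene (vertical axis) against the leptomeningeal content score (horizontal axis, log2 units) on every array, 1 panel per gene and tissue, with points marked by treatment and time, open for the 4-week cortex arrays that chose the genes. Prg4 lies close to a line on the arrays labelled hippocampus (r = 0.98), Slc26a7 and Anxa1 follow it with more scatter (r = 0.89 and 0.85), and Tdo2 and Bche do not (r = -0.09 and -0.06).

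In the 8-week cortex, whose 6 arrays did not choose the genes, the same score gave r = 0.95 for Prg4 (exact permutation p = 0.00694, adjusted p = 0.0579) and r = 0.95 for Bche (exact permutation p = 0.00833, adjusted p = 0.0641). It gave 0.85 for Slc26a7 (exact permutation p = 0.0361, adjusted p = 0.201), 0.73 for Tdo2 and 0.37 for Anxa1 (exact permutation p = 0.494). None passed after adjustment, with 6 arrays. The score itself spanned little there, from -0.24 to 0.11. The choroid plexus score gave r = 0.90 for Slc26a7 in these 6 arrays (exact permutation p = 0.00278, adjusted p = 0.0253), while the rank correlation of 0.94 did not pass (adjusted p = 0.111), and with each array centred on its median no pair passed in this tissue.

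Bche had another partner in the hypothalamus. Over the 12 arrays it followed the choroid plexus score with r = 0.78 (permutation p = 0.00083, adjusted p = 0.00922; rho = 0.87, adjusted p = 0.0098), with r = 0.77 without the 2 arrays farthest from the median score and r = 0.86 within groups. That score spanned only -0.07 to 0.15 over these arrays, and Bche 5.67 to 6.27. In the same arrays the other 4 genes had r of 0.47 to 0.56 with it, none passing. On the arrays labelled hippocampus Bche had r = -0.13 with the choroid plexus score (permutation p = 0.685), so this relation was not found there. Microglial markers were high in the hypothalamus of 2 cKO mice at 8 weeks, with scores of 1.80 and 1.31. Anxa1, which macrophages also express, read 7.42 and 6.60 there, within the range of the control mice at 6.32 to 8.08.

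The array-to-array relations differed between the genes and between tissues. Over the 30 arrays outside the 4-week cortex, with group means removed, r was 0.95 between Slc26a7 and Prg4, 0.81 between Slc26a7 and Anxa1 and 0.76 between Anxa1 and Prg4. Every pair with Tdo2 or Bche had r of 0.02 to 0.30. The 3 hypothalamus arrays with high scores weighed on these values, and without them r was 0.86 between Slc26a7 and Prg4, 0.62 between Slc26a7 and Anxa1 and 0.56 between Anxa1 and Prg4, and -0.21 to 0.25 in pairs with Tdo2 or Bche. In the 6 arrays of the 8-week cortex the order was another: r was 0.89 between Slc26a7 and Prg4, but 0.88 between Prg4 and Bche, 0.64 between Slc26a7 and Bche and only 0.30 between Anxa1 and Prg4. By the same measure over the 30 arrays, the genes most like Prg4 were the extracellular matrix protein Fn1 (0.98), the GABA transporter Slc6a13 (0.97), Islr (0.96), the thrombin receptor Thbd (0.96) and Asgr1 (0.96). Those most like Slc26a7 were Slc47a1 (0.96), Prg4 (0.95), Nupr1 (0.95), the cadherin Cdh1 (0.95) and the retinoic acid enzyme Aldh1a2 (0.95). Those most like Anxa1 were Nupr1 (0.88), Ifitm1 (0.87), Bnc2 (0.87), Ccn2 (0.87) and the prostaglandin D synthase Ptgds (0.86). Of the 38 leptomeningeal markers, among 14301 candidate genes, 32 were among the 100 most like Prg4, 31 among the 100 most like Slc26a7 and 25 among the 100 most like Anxa1. None was among the 100 most like Tdo2 or Bche. Leaving out the array labelled hippocampus with high Neurod6 gave 33, 31 and 24 in the same order, and 0 for Tdo2. Leaving out the 3 hypothalamus arrays instead gave 22, 22 and 14, with 1, 3 and 3 of the first 5 genes shared with the full set, and 0 for Tdo2 and Bche. These arrays share normalization within a tissue, and the values are descriptions.

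Tdo2 stood beside other genes than these. The genes most like it over the 30 arrays were Mlip (0.95), Prdm8 (0.95), Pgbd5 (0.94), Rasl10a (0.94) and Slc17a7 (0.94), the vesicular glutamate transporter of forebrain excitatory neurons. This rested on the 1 array: without it none of these was among the first 5, which were then led by Fam160b2 (0.77) and Zfp438 (0.71). On that array Tdo2 ranked 11 among all genes by its height above the other 11 arrays, with, among the genes ahead of it, Neurod6 (5.74 above), the desmosomal protein Dsp (4.86), lactase Lct (4.85) and Spink8 (4.54). Dsp and Lct are both markers of dentate gyrus granule neurons in the mouse.

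In the cortex, Tdo2 was compared with the same markers. At 4 weeks Dsp read 2.68, 4.91 and 4.79 in cKO cortices, against 3.14, 2.70 and 2.88 in control cortices. At 8 weeks it read 4.60, 3.00 and 3.79 in cKO cortices, against 3.09, 2.73 and 2.83 in control cortices. The 4-week cKO cortex with the lowest Tdo2 (4.47, replicate 1) was the one with Dsp at the level of the control cortices. The 8-week cKO cortex with the highest Tdo2 of its group (4.64, replicate 1) was also the one with the highest Dsp (4.60). Over the 12 cortex arrays, as a description, Tdo2 had r = 0.89 with the granule neuron gene C1ql2, 0.81 with Dsp and 0.75 with Lct, and 0.78 with a score of 8 hippocampal markers. Other markers of that list followed it less or not at all, with 0.50 for Prox1, 0.18 for Zbtb20 and -0.15 for Wfs1. In the 6 arrays at 8 weeks, which did not choose the gene, r was 0.93 with Zbtb20, 0.80 with Dsp, 0.72 with Prox1 and 0.70 with C1ql2. It was 0.24 with Lct, 0.19 with Fibcd1, 0.15 with Spink8, -0.87 with Wfs1 and 0.50 with the score. Over the 12 arrays the other 4 genes had r of 0.29 to 0.47 with that score. In the 6 arrays at 8 weeks they had 0.54 (Anxa1), 0.20 (Slc26a7), -0.06 (Prg4) and -0.14 (Bche), so Anxa1 was not below Tdo2 there. The score was -0.48, 0.61 and 0.99 in 4-week cKO cortices, against -0.14, 0.08 and -0.37 in control cortices. The cKO cortex at -0.48, replicate 1, thus scored below every control cortex, while its Tdo2 of 4.47 lay above every control cortex. These markers were singled out after their values were seen, and their part in the Tdo2 difference was not tested.

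**Figure D4:**
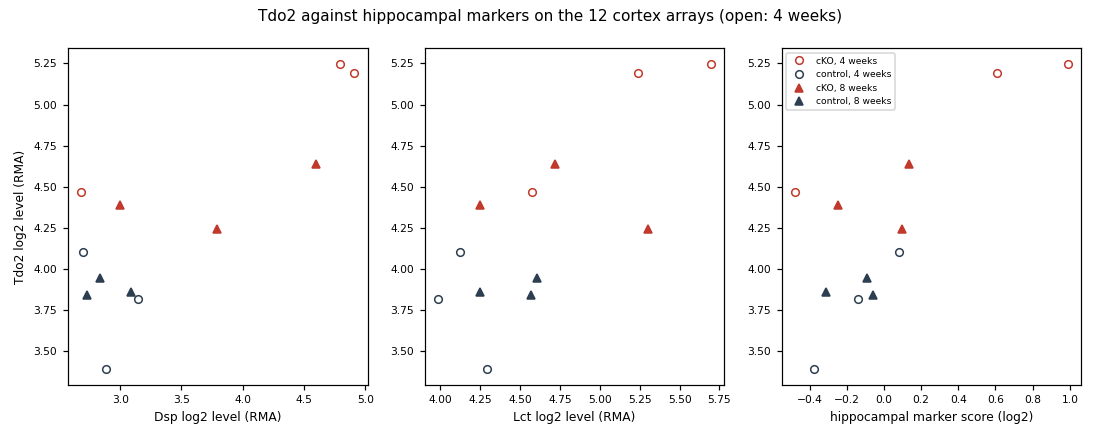
Log2 signal intensity of Tdo2 (vertical axis) against that of the granule neuron markers Dsp and Lct and against the score of 8 hippocampal markers (horizontal axes, log2 units) on the 12 cortex arrays, coloured by treatment, with open points for 4 weeks. Over the 12 arrays r is 0.81 with Dsp, 0.75 with Lct and 0.78 with the score, with 2 of the 4-week cKO arrays at the upper right of each panel.

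Relatives and pathway partners of the 5 genes called in the 4-week cortex were counted as a description. They stand beside the 4.25% of all genes called as higher and the median difference of 0.11. The median was 0.40 for the Slc26 list, 0.30 for annexins and formyl peptide receptors, 0.27 for the cholinergic list, 0.25 for tryptophan and kynurenine, 0.10 for the glucocorticoid response and 0.06 for lubricin partners. In the tryptophan and kynurenine list, 2 of 11 measured genes were called as higher, the aminotransferase Kyat1 (difference 0.51) and the aromatic amino acid decarboxylase Ddc (0.35), while Ido1, which catalyses the same first step as Tdo2, differed by 0.62 and was not called. Of 5 other Slc26 transporters 0 were called, with 0.56 for the sulfate transporter Slc26a2. Of 10 annexins and formyl peptide receptors 2 were called as higher, Anxa2 (0.78) and Anxa3 (0.52). In the cholinergic list 0 of 7 were called, with 0.35 for Prima1, the membrane anchor of cholinesterases, and 0.28 for acetylcholinesterase, Ache. Among 10 lubricin partners and small leucine-rich proteoglycans 0 were called, with 0.53 for Prelp and 0.40 for Cd44, a receptor of lubricin. Of 15 genes of the glucocorticoid response, which Anxa1 also belongs to, 1 was called as higher, Sult1a1 (0.70). None of these relatives was called in any other comparison.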

How the data were processed

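The deposited table holds log2 signal intensities of Affymetrix Mouse Genome arrays, which the authors summarized and normalized by RMA in Expression Console, separately for each tissue; no array or column was of another series. Genes were named from the platform annotation, and probe sets with several genes were left out. Probe sets were ranked by their third-highest value in a tissue and kept down to 4.30 (cortex), 4.88 (hypothalamus) and 4.65 log2 units (arrays labelled hippocampus), where the number of genes given in the study's methods was reached; a gene was represented by its probe set of highest variance. The 4 groups of a tissue were fitted with limma 3.58.1 in R 4.3.3, with two-sided p-values adjusted by Benjamini-Hochberg over all genes tested and an FDR of 15%. The fit was tested on simulated data. No replicate block was used; the replicate numbers met the pairing rule (all correlations of deviations above 0.1) only in the hypothalamus at 8 weeks (0.20, 0.26 and 0.27). Correlations were computed with scipy 1.17.1, with 100000 resamples for 11 or 12 arrays and exact permutation for 6 or 9, two-sided, and adjusted over 100 pairs, of which 10 were added after seeing the data.

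The 5 genes and the marker and pathway lists were chosen with earlier results of these data known. Named from each list were at most 3 genes with the lowest p, at most 3 with the largest difference in the 4-week cortex and the 3 with the highest cortex level, and, for each of the 5 genes, the 5 most alike over 30 arrays; other genes named were chosen after their values were seen. Alternatives changed the filter, the probe set per gene, the arrays fitted, the variance model, array weights, the test, centring, the FDR, the replicate block and the arrays included. The animals are biological replicates; 3 per group limits the precision. Scan batches are not given in the sources used here, so none was fitted.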

Additional observations from a re-analysis of the deposited data

How the results depend on the processing

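In every comparison outside the 4-week cortex, 0 of the 5 genes were called under each alternative run, including the methods' t-test, array weights, no filter, an FDR of 5% and each array left out in turn. Tdo2 in the hypothalamus, and Slc26a7 and Tdo2 on the arrays labelled hippocampus, were tested only in the run with no filter. In the 4-week cortex the differences kept their direction throughout, at 1.15 to 1.61 for Slc26a7, 0.87 to 1.45 for Tdo2, 0.92 to 1.20 for Anxa1, 0.84 to 1.30 for Prg4 and 0.79 to 1.44 for Bche, with the 1.20 of Anxa1 reached without the 3 arrays that stood apart. The count of all genes called there was 769, against 0 with only the 6 arrays compared, 2 at an FDR of 5%, 102 with arrays centred on their median and 9708 with array weights. With the replicate number as a block it was 3, in the hypothalamus 2 (against 0) at 8 weeks and 136 (against 2) between 8 and 4 weeks in cKO mice. Of the 5 genes, none of those tested was called with the block in any comparison outside the 4-week cortex. In the 4-week cortex, where they were chosen, 2 of the 3 genes called with the block were among the 5, against all 5 among the 769 without it, as a description. Under the block the correlation of Tdo2 with the leptomeningeal score on the arrays labelled hippocampus was 0.026. That of Bche moved further, to -0.47 from -0.06 on these arrays and to 0.78 from 0.35 over the 12 hypothalamus arrays.

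Small differences that had not passed changed sign. With array weights they were 0.17 for Slc26a7 and 0.026 for Bche in the 4-week hypothalamus, -0.60 for Slc26a7 and -0.35 for Prg4 in the 8-week hypothalamus, and, on the arrays labelled hippocampus, -0.11 for Bche at 4 weeks and -0.019 for Anxa1 and 0.030 for Prg4 at 8 weeks. With 1 array left out, the 8-week cortex difference ranged from -0.016 to 0.21 for Anxa1. In the 4-week hypothalamus it ranged from -0.65 to 0.38 for Slc26a7, -0.62 to 0.094 for Anxa1 and -0.25 to 0.047 for Bche. In the 8-week hypothalamus it ranged from -0.44 to 0.77 for Slc26a7, -0.67 to 0.24 for Anxa1, -0.55 to 1.68 for Prg4 and -0.065 to 0.014 for Bche. On the arrays labelled hippocampus it ranged from -0.041 to 0.15 for Bche at 4 weeks, and from -0.078 to 0.27 for Anxa1 and -0.34 to 0.087 for Prg4 at 8 weeks. The cause was not tested. Of the pairs of a gene and a content list, 1 passed in the 8-week cortex and 0 with arrays centred on their median, against 3 under each list or scaling alternative on the arrays labelled hippocampus. The t-test and the fit of only the arrays compared were not run for the interaction. With low signals and 3 animals per group, differences within the errors given were not detectable.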
